A study of Mus musculus with 43 samples.

Results

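Apoa1, Alb, Ttr, Trf, Hp, Hpx, Orm1, Orm2, Orm3 and Lrg1 encode proteins that the liver secretes into plasma. These 10 genes were chosen by their measured values in an earlier pass over the same data, above all by their high levels in 1 single-cell library, SC-11, so their levels in SC-11 are given below as a description with no test. All 10 were among the 13817 genes of the input series. In the processing experiment 8 of the 10 were among its 13845 genes, and Orm1 and Orm3 were not analysed there.

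All libraries came from PD798, a line grown in culture that was derived from the pancreatic tumor of a mouse of the KPCY model, in which a Pdx1-driven Cre acts on tumor-inducing alleles in pancreatic cells, p53 is floxed on 1 allele and YFP marks the cells. In the input series, PD798 cells spiked into mouse blood were passed through the pre-enrichment workflow and sorted, which gave 11 single cells, 12 pools of 10 cells and 6 pools of 100 cells, and 2 libraries were made from bulk RNA of the line. In the processing experiment, 3 bulk RNA libraries each were made from cells taken before sorting (Pre-FACS), kept in buffer on the bench (Mock), sorted without pre-enrichment (FACS-only) or sorted after it (Pre-enriched). The sample labels speak of mouse blood for all 43 libraries, whereas the study's methods do not mention blood for the processing experiment. The labels name no separate cultures, so that p-values measure the spread between these libraries only, which may be technical.

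Plasma proteins of this kind are made chiefly by hepatocytes, where liver-enriched transcription factors such as HNF4 and FOXA and the C/EBP family keep their genes active. During the acute-phase response, inflammatory cytokines act through C/EBP proteins and STAT3 to raise some of them, such as haptoglobin, hemopexin, the orosomucoids and LRG1, and to lower others, such as albumin, transthyretin and transferrin. The pancreas and liver arise from neighboring foregut endoderm and share several of these transcription factors.

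The members fall into 4 groups by role. Apoa1 (apolipoprotein A-I of high-density lipoprotein), Alb (albumin) and Ttr (transthyretin, a carrier of thyroid hormone and of retinol-binding protein) carry lipids and small molecules. Trf (transferrin), Hp (haptoglobin) and Hpx (hemopexin) bind iron, free hemoglobin and heme. Orm1, Orm2 and Orm3 encode orosomucoids, also called alpha-1-acid glycoproteins, and Lrg1 encodes a secreted leucine-rich glycoprotein. The orosomucoid genes lie side by side on the plus strand of chromosome 4 (mm10), Orm1 at 63344560-63348163, Orm3 at 63356162-63359511 and Orm2 at 63362449-63365878. Of the others, Apoa1 lies at 46228580-46230466 and Trf at 103204001-103230444 of chromosome 9, Alb at 90460897-90476602 of chromosome 5, Hpx at 105591613-105600137 of chromosome 7 and Lrg1 at 56119678-56122001 of chromosome 17. All are protein-coding genes in the GENCODE annotation of mm10.

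Near-identical sequence limits what can be said of single orosomucoids. Of the words of 31 bases in Orm1 transcripts, 27.5% were also found in Orm2, and of those in Orm2, 34.1% were found in another gene. For Orm3 the share was 9.42%. For Trf it was 63.8%, since an annotated gene on the same strand, Gm20425, overlaps it and holds 60.6% of its words. How the authors' counting treated such reads is not given in the sources used here, so levels of Orm1, Orm2, Orm3 and Trf are uncertain in this respect. Apoa1, Alb, Ttr, Hpx and Lrg1 shared no word with another gene, and Hp shared 0.254%.

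RefSeq promoter windows (GRCm38.p6) were at hand for 6 of the 10 members, Orm2, Orm3, Alb, Hpx, Apoa1 and Lrg1. The bases before the transcription start of 4 are printed 5′ to 3′ because Orm2 and Orm3 show how alike the neighboring orosomucoids are outside their transcripts, and Alb and Apoa1 hold the word of a liver-enriched factor. They lie at chr4:63362199-63362448 (plus strand), chr4:63355908-63356157 (plus strand), chr5:90460620-90460869 (plus strand) and chr9:46228380-46228579 (plus strand). Capitals mark matches to 2 words, TTGCNNAA for C/EBP and TGTTTNC for FOXA, searched on both strands.
Orm2: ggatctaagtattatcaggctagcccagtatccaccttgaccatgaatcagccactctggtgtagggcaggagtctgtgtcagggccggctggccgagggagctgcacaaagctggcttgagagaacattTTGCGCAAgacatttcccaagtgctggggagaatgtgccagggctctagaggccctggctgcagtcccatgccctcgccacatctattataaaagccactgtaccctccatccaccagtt
Orm3: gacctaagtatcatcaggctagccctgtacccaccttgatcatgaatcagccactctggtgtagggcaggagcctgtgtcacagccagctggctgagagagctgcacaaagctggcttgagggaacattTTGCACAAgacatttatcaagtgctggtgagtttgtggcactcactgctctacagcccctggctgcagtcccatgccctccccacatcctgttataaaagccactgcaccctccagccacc
Alb: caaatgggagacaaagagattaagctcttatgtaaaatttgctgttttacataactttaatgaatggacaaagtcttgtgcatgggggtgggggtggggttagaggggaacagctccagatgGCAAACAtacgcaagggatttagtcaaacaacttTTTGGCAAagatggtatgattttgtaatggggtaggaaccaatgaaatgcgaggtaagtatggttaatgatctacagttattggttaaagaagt
Apoa1: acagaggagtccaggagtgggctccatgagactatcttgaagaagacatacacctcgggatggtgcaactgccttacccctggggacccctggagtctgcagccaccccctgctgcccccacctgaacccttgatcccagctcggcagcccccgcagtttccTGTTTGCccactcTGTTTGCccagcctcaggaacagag

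Orm2 and Orm3 were identical at 219 of 255 aligned columns (85.9%), and each held 1 C/EBP word at nearly the same place, ending 113 bases before the start in Orm2 and 114 bases in Orm3. Alb held 1 C/EBP word and 1 FOXA word, and Apoa1 held 2 FOXA words. The C/EBP word was present in 4 of the 6 windows (Orm2, Orm3, Alb and Hpx) and in 9.56% of all 32851 windows of 250 bases. The FOXA word was present in 2 of 6 and in 17.8% of all windows, and TTCNNNGAA, a STAT word, in 0 of 6 and in 7.02%. The words were picked after sequences and levels had been seen, and a match is a description of letters and not of binding.

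Before the levels are given, 2 of the single-cell libraries need separate mention. SC-6 and SC-9 went against their labels as single cells. Together with pools of 10 cells 5 and 12 and pools of 100 cells 1 to 3 they formed 7 libraries with a Pearson r of 0.967 to 0.995 between them (median 0.991 over 21 pairs, across genes on the log2(TPM + 1) scale). The 7 were joined by r above 0.96, a limit set after r had been seen, so their high r follows from it. Pools of 100 cells 4 to 6 had r of 0.974 to 0.9795 between them, and the bulk RNA libraries 0.993. The other 9 single cells had r from 0.537 to 0.730 between them. SC-11, which is among these 9, had r of 0.537 to 0.667 to the other 30 libraries. Its median of 0.626 was the lowest of all libraries, followed by 0.672 for SC-8. The genes of the table held 65.1% of the TPM scale of SC-11, beside 54.2% to 96.6% in the other 8 single cells. SC-6 and SC-9 held 11438 and 11223 genes at 1 TPM or more, against 3919 to 8598 in the other 9 single cells and 11488 to 11549 in pools of 100 cells 1 to 3. Values of SC-6 and SC-9 are therefore given apart from those of the other 8 single cells. TPM is the share of transcripts, corrected for gene length, that fall to a gene, on a fixed scale, and keeps no read depth, so that the reads behind each library cannot be read from the files used here.

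In SC-11, all 10 members were at 1 TPM or more, and 9 of 10 were higher there than in any other single cell. Their sum was 17666 TPM, or 2.71% of the TPM of the table in that library. Apart from SC-6 and SC-9, the sums in the other 8 single cells lay between 0.0 and 1098 TPM, with a median of 3.79. SC-11 was not a library of many genes, with 4106 genes at 1 TPM or more, the second lowest number of the 11. Of all 13817 genes, 29.7% were at 1 TPM or more in SC-11. Of the 12325 genes that reached 1 TPM in 3 or more libraries, 7.58% were higher in SC-11 than in each other single cell, and 8.32% when SC-6 and SC-9 were left out. As the members were chosen for this, nothing is read from their counts of 10 and 9 against these shares.

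**Figure D1:**
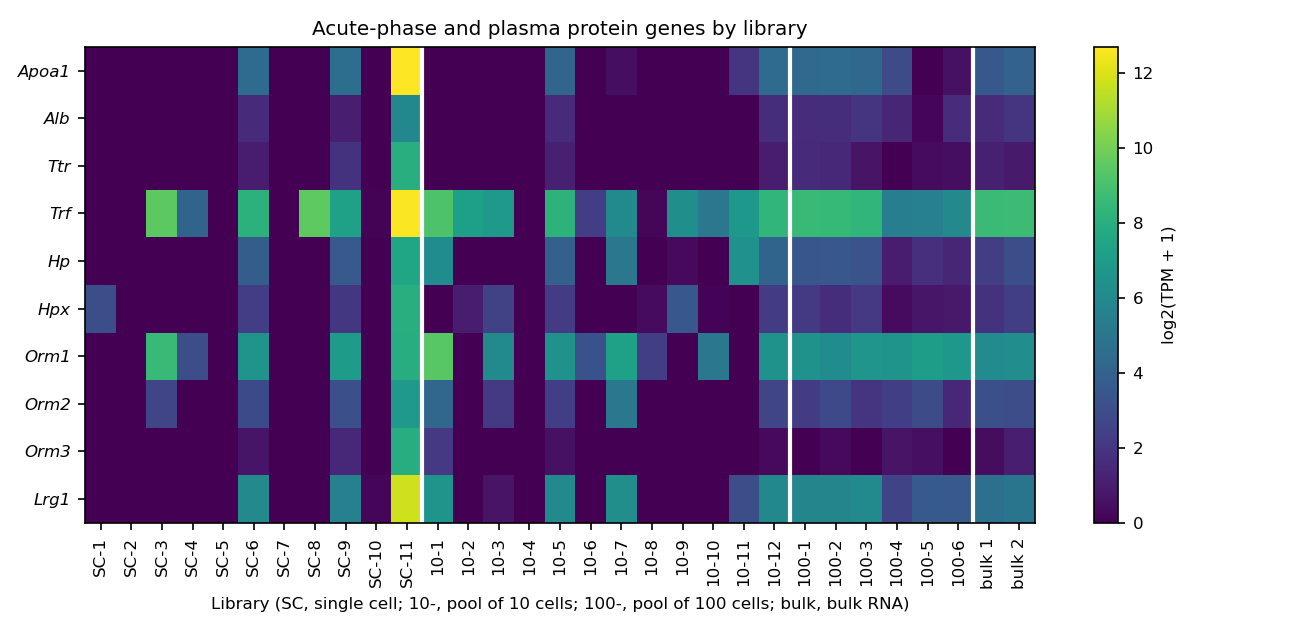
Level of each member (rows, log2(TPM + 1), color) in each of the 31 libraries of the input series (columns, white lines between single cells, pools of 10, pools of 100 and bulk RNA). SC-11 is the only single cell besides SC-9 with all 10 members at 1 TPM or more, and SC-6, SC-9, 10-5, 10-12 and 100-1 to 100-3 look alike.

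Among the carriers of lipids and small molecules, Apoa1 stood at 6612 TPM in SC-11, 22.7 in SC-9 and 20.8 in SC-6, and was listed at 0 in the other 8 single cells. Ttr stood at 260 TPM in SC-11, 2.67 in SC-9 and 0.996 in SC-6, and Alb at 58.9, 1.11 and 1.96 TPM in the same order, both listed at 0 in the other 8. These 3 genes thus occurred together in SC-11 and in no other single cell apart from SC-6 and SC-9. SC-11 held 99.3% of the Apoa1 TPM summed over the 11 single cells, 98.6% of that of Ttr and 95.0% of that of Alb.

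Among the carriers of iron and heme, Trf was the least particular to SC-11. It stood at 6180 TPM in SC-11, 735 in SC-8, 713 in SC-3, 284 in SC-6, 155 in SC-9, 16.2 in SC-4 and 0.0750 in SC-10, and was listed at 0 in the other 4 single cells. Hp stood at 172 TPM in SC-11, 12.4 in SC-6 and 10.8 in SC-9 and was listed at 0 in the other 8. Hpx stood at 254 TPM in SC-11, 7.37 in SC-1, 3.87 in SC-6 and 3.16 in SC-9 and was listed at 0 in the other 7. Hpx in SC-1 was thus found without any other member, and Trf in SC-8 likewise.

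The orosomucoids differed from each other in this respect. Orm1 was higher in SC-3, at 380 TPM, than in SC-11, at 242 TPM, followed by 124 in SC-9, 93.9 in SC-6 and 7.30 in SC-4, and was listed at 0 in the other 6. Orm2 stood at 115 TPM in SC-11, 7.51 in SC-9, 6.29 in SC-6 and 5.39 in SC-3. Orm3 stood at 235 TPM in SC-11, 1.65 in SC-9 and 0.674 in SC-6 and was listed at 0 elsewhere. SC-11 thus held 28.5% of the Orm1 TPM of the 11 single cells, 85.7% of that of Orm2 and 99.0% of that of Orm3. Lrg1 stood at 3538 TPM in SC-11, 61.5 in SC-6, 44.8 in SC-9 and 0.129 in SC-10 and was listed at 0 in the other 7.

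In the other 8 single cells, 7 of 80 member values (8.75%) were at 1 TPM or more, against 48.4% of the values of the 12325 genes that passed the filter. As the members were chosen with these values known, nothing is read from this difference. The 7 values were Trf, Orm1 and Orm2 in SC-3, Trf and Orm1 in SC-4, Trf in SC-8 and Hpx in SC-1. SC-2, SC-5, SC-7 and SC-10 had no member at 1 TPM or more. Trf and Orm1 were hence the only members found at 1 TPM or more in more than 1 of these 8 cells, and Orm1 was found only where Trf was.

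Genes at 1 TPM or more in 3 or more libraries were ranked by their excess in SC-11 over the other 10 single cells. The 10 with the largest difference on the log2(TPM + 1) scale held Apoa1 (8.13), Orm3 (6.48), Ttr (6.15) and Lrg1 (5.82). These are members, and members were chosen by such values. Outside the members, Lbp, which encodes the acute-phase lipopolysaccharide-binding protein, stood at 1036 TPM in SC-11 and at most 22.4 in another single cell. Alas2, which encodes the erythroid enzyme of the first step of heme synthesis, stood at 278 TPM against 0.0878. The others were Ms4a4b (1845 against 13.3 TPM), Ms4a4d (775 against 18.0 TPM), Fhl1 (156 against 1.06 TPM) and Gdpd2 (63.3 against 0.439 TPM). A gene confined to SC-11 could not enter this ranking, so levels elsewhere are given as a description only. In pools of 10 cells, Ms4a4b reached 207, Lbp 167, Alas2 83.3, Ms4a4d 46.5, Gdpd2 10.1 and Fhl1 3.32 TPM, and Apoa1 20.6 TPM. Hpx held rank 14, Alb 23, Orm2 38, Hp 42, Trf 68 and Orm1 1818.

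Of a list of 55 other plasma protein genes, 18 were in the table and 5 of them were at 1 TPM or more in SC-11, against 2 to 8 (median 4) in the other 8 single cells and 12 in both SC-6 and SC-9. Lcn2 (lipocalin 2, an iron-siderophore binder) stood at 10352 TPM, within the 111 to 11860 TPM of the other 8 single cells. Saa3 (serum amyloid A3) stood at 2805 TPM, against at most 23.7 TPM in the other 8 and 191 and 280 TPM in SC-6 and SC-9. Cfb (complement factor B) stood at 1498 TPM, against at most 256 TPM in the other 8 and 74.7 and 46.6 TPM in SC-6 and SC-9. Rbp4, the retinol carrier that binds transthyretin, stood at 300 TPM, against at most 90.4 TPM in the other 8 and 111 and 118 TPM in SC-6 and SC-9. C3 (complement component 3) stood at 56.7 TPM, against at most 50.1 TPM in the other 8 and 40.0 and 34.3 TPM in SC-6 and SC-9. Saa3, Cfb, Rbp4 and C3 were thus highest in SC-11 among the single cells and Lcn2 was not, while the other 13 genes of the list were below 1 TPM there.

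Of 20 regulators and receptors of hepatic and acute-phase genes in the table, 8 were at 1 TPM or more in SC-11, against 6 to 12 in the other 8 single cells and 18 and 16 in SC-6 and SC-9. Hnf4a, a liver-enriched nuclear receptor also active in gut and pancreas, stood at 51.0 TPM in SC-11, at most 1.54 TPM in the other 8, 9.81 and 8.24 TPM in SC-6 and SC-9 and 47.2 and 49.4 TPM in bulk RNA. Cebpd stood at 285 TPM in SC-11, against at most 117 TPM in the other 8 and 74.5 and 75.3 TPM in SC-6 and SC-9. Cebpb (783 TPM), Jak1 (28.0 TPM) and Stat3 (24.2 TPM) lay within the range of the other 8 or, for Stat3, just above its highest value of 23.1 TPM but below the 33.9 TPM of SC-6. Of the FOXA genes, Foxa2 stood at 2.76 TPM in SC-11, within the range of 0.0 to 30.5 TPM of the other 8, and Foxa1 and Foxa3 were listed at 0 in SC-11 and, at the median, in the other 8.

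Iron and heme handling genes were mixed in SC-11. Of 16 in the table, 7 were at 1 TPM or more in SC-11, against 6 to 12 in the other 8 single cells and 14 in both SC-6 and SC-9. The ferritin genes Fth1, at 12580 TPM, and Ftl1, at 11012 TPM, were below the lowest of the other 8 (13290 and 13843 TPM) and below SC-6 and SC-9. Tfrc, the receptor that takes up transferrin, was listed at 0 in SC-11 and stood between 11.4 and 168.5 TPM in the other 8 and at 59.3 and 52.6 TPM in SC-6 and SC-9. Steap4, a metalloreductase, stood at 81.0 TPM in SC-11 and 6.47 and 5.56 TPM in SC-6 and SC-9 and was listed at 0 in the other 8. Fbxl5, an iron sensor, stood at 590 TPM, against at most 313 TPM in the other 8 and 171 and 92.6 TPM in SC-6 and SC-9, and Blvra (biliverdin reductase) at 87.4 TPM, within the range of 26.4 to 327 TPM of the other 8.

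Markers of the labelled cell type and of other cells were read in the same library. Of 13 ductal and epithelial markers, 6 were at 1 TPM or more in SC-11 and 8 to 11 in the other 8 single cells, and their sum was 3463 TPM, against 6612 to 29546 TPM in the other 8 and 31145 and 25957 TPM in SC-6 and SC-9. Krt18 (1721 TPM), Krt19 (992 TPM), Krt7 (395 TPM), Krt8 (237 TPM) and Cdh1 (102 TPM) were present and Epcam was listed at 0. Most genes of the remaining marker lists were not among the genes of the table, so these lists say little. Of 22 non-secreted hepatocyte markers, 6 were in the table, of which Fah stood at 89.5 TPM in SC-11, beside up to 89.1 TPM in the other 8, and Arg1, Mat1a, Ttc36, Slc10a1 and Hal were listed at 0. In the table were 3 of 16 acinar, 2 of 14 islet and 2 of 8 platelet markers, all listed at 0 in SC-11. Of 13 erythroid markers 2 were in the table, Alas2 at 278 TPM and Klf1 listed at 0 in SC-11, and both were listed at 0 in the other 8. Of 14 neutrophil markers 4 were in the table. Lcn2 and S100a8 were at 1 TPM or more in SC-11, and S100a9 and Ltf were listed at 0. S100a8 stood at 43.2 TPM, against at most 17.0 TPM in the other 8 and 58.1 and 95.9 TPM in SC-6 and SC-9. Of 10 macrophage and monocyte markers 5 were in the table, and only Cd14 was at 1 TPM or more in SC-11. Cd14 stood at 73.1 TPM, within the 0.158 to 87.6 TPM of the other 8. Cd68, Csf1r and Mrc1 were listed at 0 in SC-11, and Ly6c2 stood at 0.273 TPM. The part of blood or other cells in the member levels of SC-11 was not tested.

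**Figure D2:**
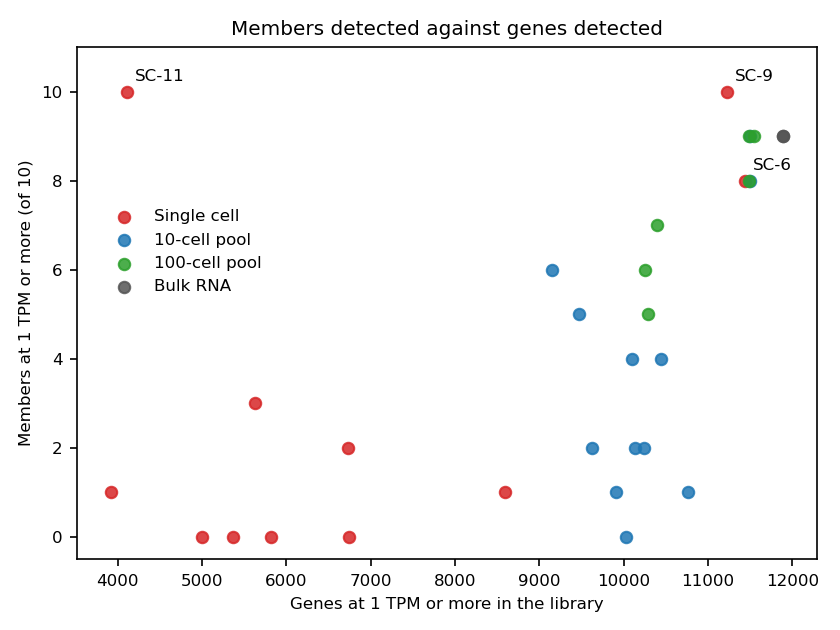
Number of members at 1 TPM or more (of 10, vertical axis) against the number of genes at 1 TPM or more (horizontal axis) in each of the 31 libraries, colored by input. SC-11 shows 10 members with 4106 genes, whereas the libraries with 8 or more members otherwise hold at least 11223 genes.

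Across the 20 libraries of pools and bulk RNA, 106 of 200 member values were at 1 TPM or more, 44 of 120 in pools of 10 cells, 44 of 60 in pools of 100 cells and 18 of 20 in bulk RNA. Without pools of 10 cells 5 and 12 and pools of 100 cells 1 to 3, the count was 63 of 150. Among all 12325 genes that passed the filter, 82.6% of values were at 1 TPM or more in pools of 10 cells, 88.3% in pools of 100 cells and 95.5% in bulk RNA. The number of members at 1 TPM or more ran from 0 (pool 4) to 9 (pool 5) in pools of 10 cells, from 5 to 9 in pools of 100 cells, and was 9 in both bulk RNA libraries. In pools and bulk RNA, fewer cells of a type and less RNA per cell cannot be told apart. As the members were chosen with these values known, nothing is read from their shares against those of all genes.

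In bulk RNA of the line, Trf was the highest member and Orm3 and Ttr the lowest. Trf stood at 403 and 419 TPM, Orm1 at 69.5 and 73.4 TPM, Lrg1 at 24.3 and 29.1 TPM and Apoa1 at 10.4 and 14.7 TPM. Orm2 stood at 7.50 and 7.08 TPM, Hp at 4.11 and 7.33 TPM, Hpx at 2.62 and 4.07 TPM, Alb at 1.90 and 2.95 TPM, Ttr at 1.13 and 0.897 TPM and Orm3 at 0.358 and 1.06 TPM. Neighbors in this order did not overlap except Orm2 and Hp, Hpx and Alb, and Ttr and Orm3, and with 2 libraries no test of the order was made. SC-11 exceeded the mean of the bulk RNA libraries 528-fold for Apoa1, 331-fold for Orm3, 256-fold for Ttr, 132-fold for Lrg1, 76.0-fold for Hpx, 30.1-fold for Hp, 24.3-fold for Alb, 15.7-fold for Orm2, 15.0-fold for Trf and 3.38-fold for Orm1. These folds rest on 1 cell and have no replicate check.

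The SC-11 level times 0.1 is what a pool of 10 cells would show if it held 1 such cell, each cell gave equal RNA and the other cells held none. For 7 members no pool of 10 cells reached 0.1 times SC-11. These were Apoa1 (0.1 times SC-11 being 661 TPM, the highest pool 20.6), Lrg1 (354 and 92.8 TPM), Ttr (26.0 and 1.18 TPM), Orm3 (23.5 and 3.26 TPM), Hpx (25.4 and 9.87 TPM), Alb (5.89 and 2.12 TPM) and Trf (618 and 569 TPM). For Hp, 3 of 12 pools were at or above that level, for Orm1 6 and for Orm2 2.

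**Figure D3:**
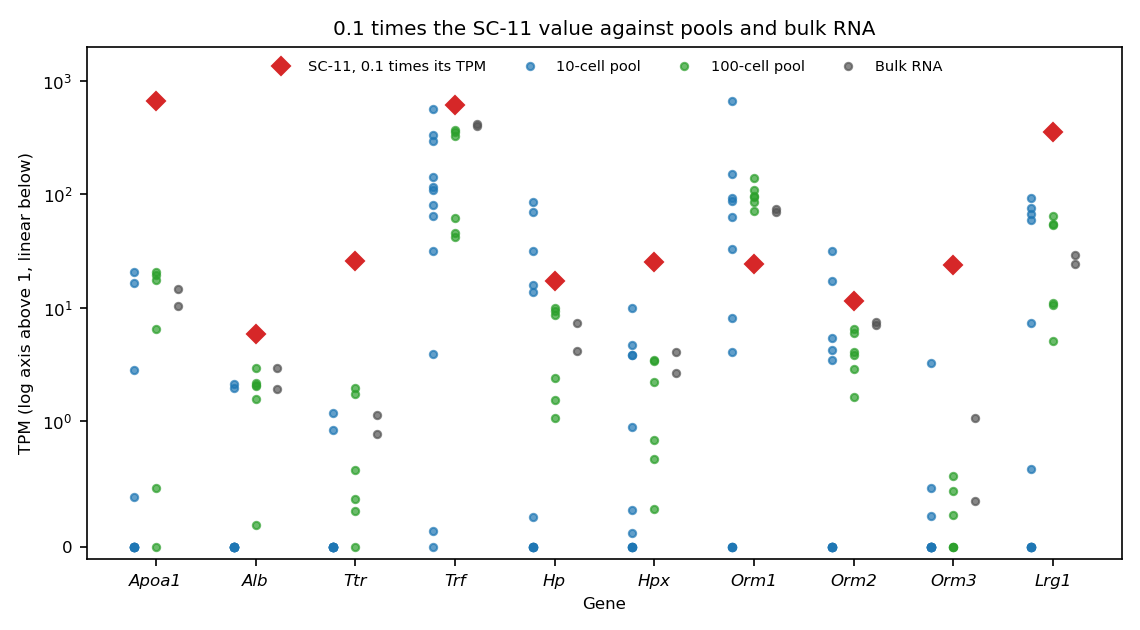
TPM of each member in pools of 10 cells (n = 12), pools of 100 cells (n = 6) and bulk RNA (n = 2), each point 1 library, with 0.1 times the SC-11 value as a diamond, on an axis that is logarithmic above 1 TPM and linear below it. The diamond lies above all pools of 10 cells for Apoa1, Alb, Ttr, Trf, Hpx, Orm3 and Lrg1.

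The pools of 10 cells varied widely around these values. Lrg1 stood at 92.8 TPM in pool 1, 75.7 in pool 7, 66.4 in pool 5, 59.6 in pool 12, 7.26 in pool 11 and 0.618 in pool 3 and was listed at 0 in the other 6. Hp stood at 85.6 TPM in pool 11, 70.2 in pool 1, 31.6 in pool 7, 15.8 in pool 12, 13.8 in pool 5 and 0.231 in pool 9. All 4 pools with Lrg1 above 50 TPM were among the 5 with Hp above 10 TPM. Orm1 reached 672 TPM in pool 1 and 150 TPM in pool 7, and Orm2 was highest in the same pools at 17.1 and 31.4 TPM, in reverse order. Apoa1, by contrast, stood at 20.6 TPM in pool 12, 16.6 in pool 5, 2.79 in pool 11 and 0.391 in pool 7 and was listed at 0 in the other 8, pool 1 among them. Alb and Ttr were found only in pools 5 and 12, at 1.94 and 2.12 TPM for Alb and 1.18 and 0.924 TPM for Ttr. Pools 5 and 12 belong to the 7 libraries that resembled each other, as do SC-6 and SC-9. Both are also among the 4 pools with Lrg1 above 50 TPM.

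Pools 1 and 7 thus carried Trf, Hp, Orm1, Orm2 and Lrg1 at 1 TPM or more without Apoa1, Alb or Ttr at that level. As a description over the 20 libraries of pools and bulk RNA, which share normalization, Pearson r on the log2(TPM + 1) scale was 0.89 for Apoa1 and Alb, 0.86 for Apoa1 and Ttr and 0.83 for Alb and Ttr. It was 0.84 for Orm1 and Orm2, 0.83 for Hp and Lrg1 and 0.82 for Orm2 and Lrg1. These were the 6 highest of 45 pairs of members, and the other 39 ran from -0.07 to 0.73 with a median of 0.47. For Hp and Hpx, which bind hemoglobin and its heme, it was -0.03. Without the 5 pools that resembled each other (n = 15), the 7 named values were, in the order given, 0.81, 0.72, 0.81, 0.84, 0.82, 0.89 and -0.26. Among these 15, Alb and Ttr were listed at 0 in every pool of 10 cells. In the rest of the 15, Alb stood at 0.168 to 2.95 TPM and Ttr at 0.0 to 1.13 TPM. The values for pairs with Alb or Ttr thus mostly set larger inputs, at low levels, against zeros. The part of input amount in these values was not tested. The part of shared reads in the value for Orm1 and Orm2 was not tested.

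For the 5 members at 1 TPM or more in at least 10 of these 20 libraries, the genes of most similar pattern were named, again as a description. Trf was closest to Vim (r = 0.96), the intermediate filament gene vimentin, then Ifnar2 (0.91) and Rbp4 (0.90). Hp was closest to Adhfe1 (0.96), Tm7sf2 (0.85) and Lrg1 (0.83). Orm1 was closest to Vnn1 (0.86), Zfp955b (0.86) and Ms4a4b (0.85), and Orm2 to Cyp27a1 (0.88), 9330188P03Rik (0.86) and C1rl (0.85). Lrg1 was closest to Egr2 (0.90), Zfp865 (0.89) and Tox (0.89). Ms4a4b and Rbp4 were thus both near members over the pools and high in SC-11.

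Pools of 100 cells fell into 2 sets. In pools 1 to 3, Trf stood at 371, 355 and 329 TPM and in pools 4 to 6 at 41.9, 45.1 and 61.6 TPM. Lrg1 stood at 53.3, 54.2 and 64.5 TPM against 5.08, 10.9 and 10.6 TPM, and Apoa1 at 19.4, 20.7 and 17.6 TPM against 6.51, 0 and 0.463 TPM. Hp stood at 9.40, 9.83 and 8.54 TPM against 1.05, 2.38 and 1.53 TPM. Hpx, at 2.20 to 3.47 against 0.295 to 0.850 TPM, and Ttr, at 0.607 to 1.94 against 0.0 to 0.374 TPM, did not overlap either. Orm1 overlapped, at 86.1, 70.8 and 96.5 TPM against 94.0, 139 and 109 TPM, and so did Alb, Orm2 and Orm3. Over all genes, r between the sets was 0.875 to 0.900. The sets were made after values had been seen and were not tested. The share of all genes that did not overlap between the sets was not computed, so the splits are not read as particular to the members. Bulk RNA lay between them for Lrg1 and above both for Trf.

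The processing experiment was described from its own table, although its earlier results were known too when the members were chosen. No member passed the test of a difference between the 4 conditions. Of the 8 members present, 6 reached 1 TPM in 3 or more of 12 libraries and were tested, and Orm2 and Lrg1 were not. In a limma model of log2(TPM + 1) with 4 conditions and Benjamini-Hochberg adjustment over 12159 genes, 0 of 6 passed an adjusted p of 0.05 in the F test, in which 13 of all genes (0.107%) passed. At an unadjusted p under 0.05, limma's F test gave Trf, Apoa1 and Alb among the members and 919 of all genes.

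Trf was the nearest to a difference. It stood at 634, 608 and 611 TPM in Pre-FACS, 606, 601 and 605 in Mock, 552, 538 and 566 in FACS-only and 570.5, 534 and 553 in Pre-enriched libraries. All 6 sorted libraries were below all 6 that were not sorted, a split that 88 of 12159 genes (0.724%) showed in one direction or the other and that was picked after the values had been seen. The F test of limma gave an unadjusted p of 0.00229 and an adjusted p of 0.366. Trf fell short of the threshold in each contrast, with a log2 difference of -0.16 (SE 0.0439, adjusted p = 0.243) for Pre-enriched against Pre-FACS, -0.16 (adjusted p = 0.312) for FACS-only against Pre-FACS, -0.13 (adjusted p = 0.505) for Pre-enriched against Mock and -0.13 (adjusted p = 0.805) for FACS-only against Mock. Between Pre-enriched and FACS-only it was 0.00, and for Mock against Pre-FACS -0.03.

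Apoa1 stood at 18.3, 13.9 and 16.7 TPM in Pre-FACS, 11.8, 13.1 and 12.0 in Mock, 12.3, 10.1 and 11.9 in FACS-only and 16.1, 12.9 and 12.1 in Pre-enriched libraries. Pre-FACS libraries were above all Mock and all FACS-only libraries and overlapped with Pre-enriched ones. The log2 difference of Apoa1 was -0.47 (SE 0.139, adjusted p = 0.409 by limma) for FACS-only against Pre-FACS, -0.37 (adjusted p = 0.997) for Mock against Pre-FACS and -0.24 (adjusted p = 0.637) for Pre-enriched against Pre-FACS. Alb was highest in Pre-enriched libraries (6.46, 4.88 and 3.95 TPM), which did not overlap with FACS-only libraries (2.68, 3.29 and 2.32 TPM), at a log2 difference of 0.68 (adjusted p = 0.716 by limma). Its log2 difference was 0.85 (SE 0.280, adjusted p = 0.493) against Mock (4.13, 1.09 and 2.44 TPM), with which it overlapped. Ttr stood at 6.14, 6.02 and 6.19 TPM in Pre-enriched and 8.09, 7.40 and 9.83 TPM in Pre-FACS libraries, which did not overlap. Its log2 difference was -0.40 (SE 0.172, adjusted p = 0.498 by limma).

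Hp and Hpx varied as much within as between conditions. Mean TPM of Hp lay between 0.850 ± 0.0461 (SD, n = 3) in Mock and 1.18 ± 0.474 in FACS-only libraries, and that of Hpx between 4.63 ± 1.96 in Pre-enriched and 6.33 ± 0.900 in Pre-FACS libraries. Orm2 reached 1.33 TPM in 1 Pre-FACS library and Lrg1 1.04 TPM in 1 Pre-enriched library, and neither did so elsewhere. In these bulk libraries Lrg1 was listed at 0 in all 3 Mock libraries, whereas in the separately normalized table of the input series bulk RNA had 24.3 and 29.1 TPM, a difference that cannot be tested between tables.

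Each pair of conditions gave 0 members past the threshold. Of all genes, 6 (0.0493%) passed for Pre-enriched against Pre-FACS, 15 (0.123%) for FACS-only against Pre-FACS, 1 (0.00822%) for Mock against Pre-FACS, and 0 (0.0%) by limma for each of the 3 remaining pairs, Pre-enriched with FACS-only, Pre-enriched with Mock and FACS-only with Mock, where 821, 945 and 684 genes had an unadjusted p under 0.05. These comparisons share libraries. Libraries did not overlap for 2 of 6 members (Ttr and Trf) between Pre-enriched and Pre-FACS, beside 14.2% of all genes, for 2 (Apoa1 and Trf) between FACS-only and Pre-FACS, beside 11.6%, and for 2 (Apoa1 and Trf) between Mock and Pre-FACS, beside 9.33%. They did not overlap for 2 (Ttr and Trf) between Pre-enriched and Mock, beside 15.4%, for 1 (Alb) between Pre-enriched and FACS-only, beside 12.3%, and for 1 (Trf) between FACS-only and Mock, beside 10.5%.

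**Figure D4:**
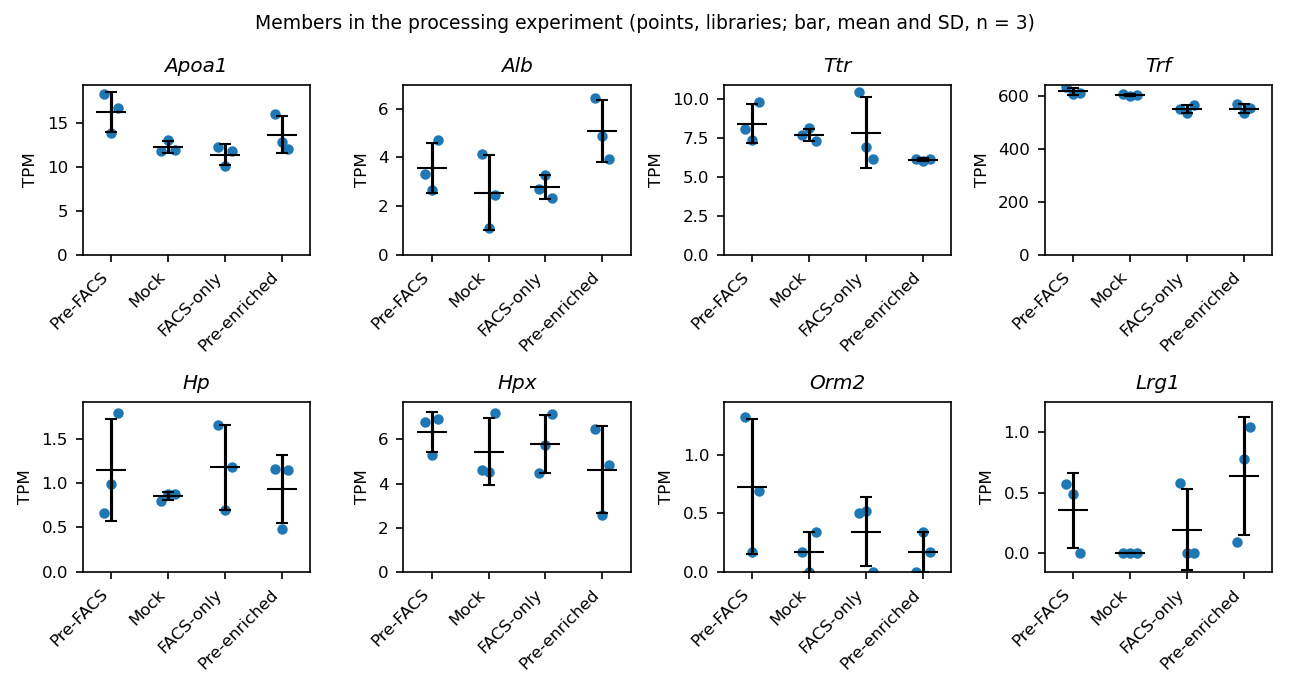
TPM of the 8 members present in the processing experiment (1 panel each, vertical axis) in 3 libraries of each of 4 conditions, with the mean and SD as a bar. Trf lies between 534 and 570.5 TPM in sorted and between 601 and 634 TPM in unsorted libraries, and Lrg1 and Orm2 lie near 0.

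Genes of the same pathways likewise gave no call. Of 19 tested regulators and receptors of hepatic and acute-phase genes, 0 passed in any comparison, and their median log2 difference for Pre-enriched against Pre-FACS was -0.03, beside -0.01 over all genes. Of 22 tested other plasma protein genes 0 passed, with a median of 0.05, and of 16 iron and heme handling genes 0 passed, with a median of -0.01. Of 7 uptake receptors 0 passed, with a median of 0.13. None of the 13 ductal and epithelial markers passed either, with a median of -0.03.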

How the data were processed

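Polyadenylated RNA of PD798 cells was measured by SMART-Seq v4 and sequencing in 43 libraries, 31 of the input series and 12 of the processing experiment. The authors aligned reads to mm10 with spike-in sequences added (STAR, version 2.52 in the submitters' processing notes), counted them per gene with featureCounts, applied EDASeq's upper-quartile normalization and deposited the result as TPM. The gene annotation and the rule that chose the genes of each table are not given in the sources used here. The files give TPM without read numbers, so no counting error could be set beside a value, and the number of libraries limits the precision. Both tables were normalized separately, and tests were run within a table only. Columns of values left unused numbered 0.

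Groups were taken from the sample labels. The deposited TPM were transformed to log2(TPM + 1), and fold changes of low genes are understated on this scale. Genes that reached 1 TPM in 3 or more of the 12 processing libraries were kept (12159 of 13845), limma (3.58.1, under R 4.3.3) fitted 1 model with the 4 conditions using trended empirical Bayes moderation, and the F test and 6 contrasts were adjusted by Benjamini-Hochberg over all kept genes with a threshold of 0.05. In the input series the same filter kept 12325 of 13817 genes, and values, ranges and Pearson correlations are given with no test (Python 3.11.15, numpy 2.4.6, pandas 2.3.3). Members and gene lists were chosen with earlier results of these data known. From each list up to 5 genes of highest TPM in SC-11 are named, as are the 10 genes that exceed the other single cells most there and the 3 genes of most similar pattern for each member at 1 TPM or more in at least 10 of the 20 libraries of pools and bulk RNA. The ranking in SC-11 and that of similar pattern used only genes that passed the filter. Tfrc, Epcam, Foxa1, Foxa2, Foxa3, Klf1 and the hepatocyte markers at 0 were named after their values had been seen. The same holds for S100a9, Ltf, Cd68, Csf1r, Mrc1 and Ly6c2. Some genes that these rules would name are not reported here. Positions and words of 31 bases come from GENCODE M21, and promoter windows from RefSeq, aligned with Biopython 1.88. Alternatives were a pseudocount of 0.1, no filter, a filter at a mean of 5 TPM, no trend, quantile normalization, the replicate number as a block, other detection limits, rescaled TPM and leaving out libraries.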

Additional observations from a re-analysis of the deposited data

How the results depend on the processing

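In the processing experiment, the count of members past the threshold was 0 in each of the 7 comparisons under every alternative that was run, including each library left out in turn. The adjusted p of Trf among the 4 conditions was 0.366 as reported and ran from 0.0748, with the replicate number as a block, to 0.645. Same-numbered libraries of different conditions had correlated deviations of -0.0422 to 0.229 (median 0.0693, 18 pairs). Other pairs (36) had -0.160 to 0.0836, with a lower median of -0.0300. Whether the numbers mark pairs is not known from the labels. The main model left them out, and the model with the replicate number as a block is given beside it. With the replicate block, the counts of all genes past the threshold were 61 among the 4 conditions (13 as reported), 37 for Pre-enriched against Pre-FACS (6), 7 for Pre-enriched against FACS-only (0), 2 for Pre-enriched against Mock (0), 77 for FACS-only against Pre-FACS (15), 7 for Mock against Pre-FACS (1) and 4 for FACS-only against Mock (0), and no member was among them.

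Without a filter the counts were 7 among the 4 conditions, 1 between Pre-enriched and FACS-only and 1 between Pre-enriched and Mock. Without a trend they were 1 among the 4 conditions, 2 for Pre-enriched against FACS-only, 1 for Pre-enriched against Mock, 0 for FACS-only against Pre-FACS and 0 for Mock against Pre-FACS. With 1 library left out they ran from 1 to 17 among the 4 conditions, 1 to 7 for Pre-enriched against Pre-FACS, 0 to 2 for Pre-enriched against FACS-only, 5 to 24 for FACS-only against Pre-FACS and 0 to 1 for Mock against Pre-FACS. Of the 12 libraries, each except FACS-only replicate 1 moved the count among the 4 conditions by over 1.5 times when left out. The cause of these changes was not tested.

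In the input series, 10 members were at 1 TPM or more in SC-11 and 9 highest there under each alternative run. The count of 106 member values at 1 TPM or more in pools and bulk RNA was 70 at a limit of 5 TPM. It was 97 of 190 with 1 bulk RNA library left out, whichever it was. Chosen after seeing the data, it was 63 of 150 without the 5 pools that resembled each other. TPM gives no depth, so that a gene listed at 0 in a single cell may have been missed, and SC-11 is 1 cell with no replicate.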
